A study of Mus musculus with 37 samples.

Results

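Elf5, Kit, Aldh1a3, Cd14, Itgb3, Itga2, Sox9 and Ehf are 8 genes used as markers of the luminal progenitor cells of the mammary gland. They were followed by RNA sequencing in luminal cells sorted from mouse mammary glands. The genes were taken by symbol from the 52636 genes of the deposited tables; all 8 were found, and all 8 were among the 18426 genes that passed a filter on low counts and were tested. The series set hormone responses of cells with mutant Esr1, the gene of estrogen receptor alpha, against those of cells with the wild-type gene. Its 37 libraries fell into 12 groups. D542G and Y541S name the Esr1 mutations, and each mutant was given E2 (estradiol), P4 (progesterone), E2+P4 or a placebo pellet. WT cells had the same 4 treatments. All mice, the WT placebo group included, had been raised to 8 weeks, then ovariectomized, and carried the pellets for 8 days, so no group had ovaries during the treatment. There were 3 libraries in each of 11 groups and 4 in WT P4. The labels call the cells mature luminal and name no surface marker of the sort, no strain and no copy number of the mutant alleles, and they do not say whether a sample was 1 animal or a pool. P-values therefore measure the spread between these samples.

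Mammary luminal epithelium holds hormone-sensing cells, which carry the receptors for estrogen and progesterone, and progenitor cells, which mostly lack them and can give rise to milk-secreting alveolar cells. Ovarian hormones act on the hormone-sensing cells, and these pass the signal to their neighbours through secreted factors. Progenitors are known by surface proteins (the receptor tyrosine kinase Kit, the lipopolysaccharide co-receptor Cd14, the integrin chains Itgb3 and Itga2), by the retinaldehyde dehydrogenase Aldh1a3, and by transcription factors, among them Elf5 and Ehf of the ETS family and Sox9 of the SOX family.

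Counts per library summed to 25.7 to 52.2 M, with a median of 41.3 M. Levels of single genes are given as CPM, counts scaled to a common library total after TMM normalization. They compare a gene between libraries but not between genes, because CPM is not scaled to gene length. The deposited widths, which equalled the genomic span with introns for 85.6% of genes, were not used for scaling. Sums over a list of genes are CPM of the plain library total, without TMM. Markers of luminal epithelium (Krt8, Krt18, Krt19, Epcam and Cdh1) summed to 13899 to 31587 CPM over all libraries, against at most 649 CPM for 10 markers of basal and myoepithelial cells. Esr1 itself averaged 171 ± 25.9 CPM in D542G placebo, 82.1 ± 25.1 CPM in Y541S placebo and 688 ± 130 CPM in WT placebo (SD, n = 3 each), which does not check the genotype, since a point mutation leaves the gene in place. Among the libraries, WT P4 4, WT P4 5 and number 5 of Y541S placebo carry sample identifiers of a later number series and have at most 31.3 M counts, against at least 32.7 M in the other 34. In a bulk sample, fewer cells of a type and less RNA per cell cannot be told apart, and this holds for every level below.

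Estradiol in WT cells moved nearly the whole marker set. Against WT placebo, 7 of the 8 genes were called in WT E2, 6 higher and Sox9 lower, while 31.5% of all genes tested were called (15.6% higher and 15.9% lower). A gene was called at an adjusted p under 0.05 in edgeR's quasi-likelihood test, with Benjamini-Hochberg adjustment over all genes of a comparison. Progesterone alone called none of the 8 in WT cells, where 1.43% of all genes were called (0.923% higher and 0.505% lower); none had an unadjusted p under 0.05, and DESeq2 called none either. With E2+P4 in WT cells, Ehf was higher and Sox9 lower, 2 of 8, beside 23.4% of all genes (11.8% higher and 11.5% lower).

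In D542G cells the called rises came in the groups with progesterone. D542G P4 against D542G placebo called 4 of 8, with Kit, Cd14 and Ehf higher and Sox9 lower, beside 18.4% of all genes (9.49% higher and 8.88% lower). D542G E2+P4 called 5 of 8, the same 4 in the same directions and Itga2 lower, beside 25.4% (13% higher and 12.4% lower). D542G E2 called 2 of 8, Kit and Sox9, both lower, beside 15.7% (8.36% higher and 7.34% lower). In Y541S cells no hormone raised any of the 8 past the test with all libraries, but without Y541S placebo 5 Kit (1.94), Cd14 (1.54) and Ehf (1.96) were called higher with E2 and Itga2 (-1.50) lower, and Ehf was called higher with P4 (1.98) and E2+P4 (1.72). With all libraries, Y541S E2 called none, beside 4.65% of all genes (1.87% higher and 2.78% lower); Itga2, Sox9 and Ehf had an unadjusted p under 0.05, and DESeq2 called Itga2. Y541S P4 called Elf5 and Itga2 lower, beside 11.3% of all genes (5.14% higher and 6.13% lower), and Y541S E2+P4 called the same 2 lower, beside 18.5% (8.43% higher and 10.1% lower). The share of the set called stood furthest above that of all genes in WT E2 and in both D542G groups with P4; in the other hormone groups at most 2 of 8 were called. Comparisons within a genotype share their placebo libraries.

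**Figure D1:**
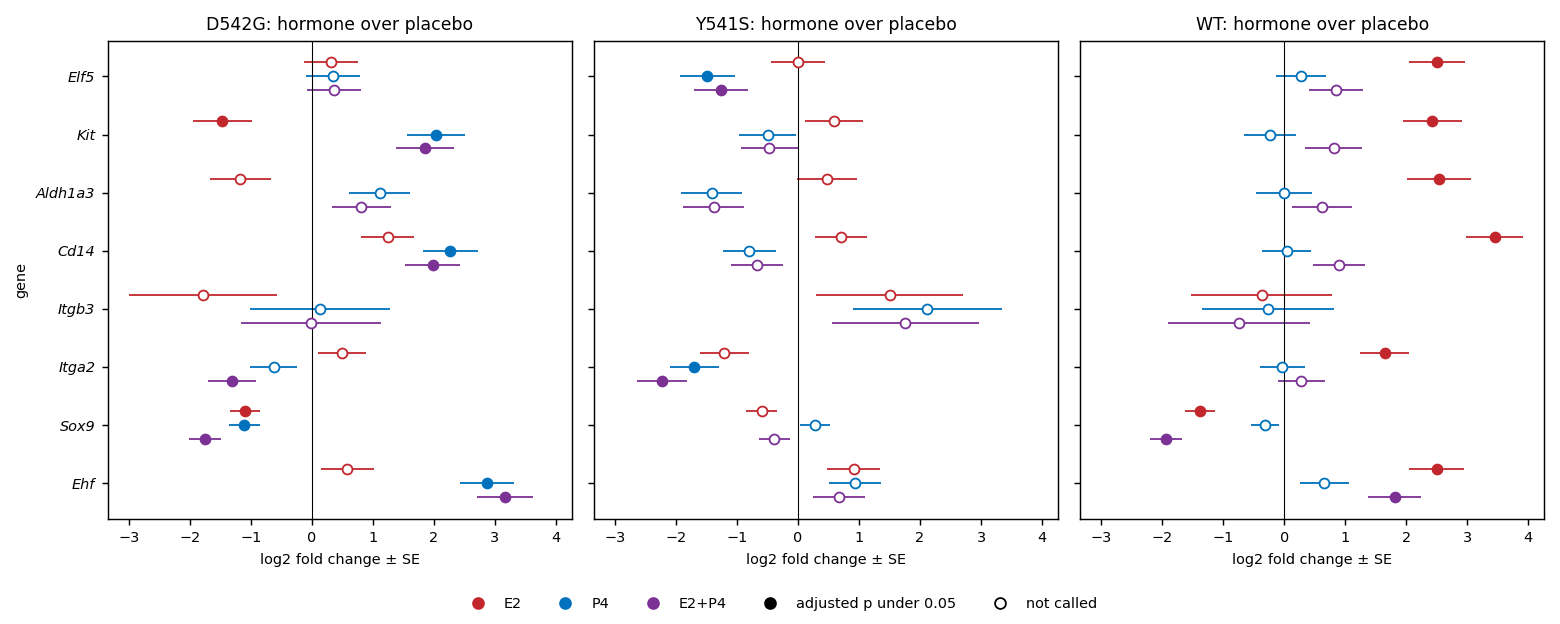
Log2 fold change (± SE, from the edgeR fit) of each gene for E2, P4 and E2+P4 over the placebo group of its genotype, in D542G, Y541S and WT cells; filled points passed an adjusted p of 0.05. Filled points to the right are 3 each for D542G P4 and D542G E2+P4, none for Y541S, 6 for WT E2 and 1 (Ehf) for WT E2+P4.

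Elf5 encodes an ETS factor that drives alveolar differentiation in the mouse mammary gland. The gene lies on chromosome 2 (chr2:103411688-103450989, plus strand, GRCm38). Of the 8 genes, 3 have a promoter in the RefSeq table used here (GRCm38.p6). They are those of Elf5, Kit and Itga2, shown as the members that the table holds, and each was searched for the core letters bound by ETS factors. The Elf5 sequence precedes its second listed start, an internal one, and lies at chr2:103423818-103424061 on the plus strand. Capitals mark the ETS core GGAA on either strand (TTCC where it lies on the reverse strand).

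Elf5: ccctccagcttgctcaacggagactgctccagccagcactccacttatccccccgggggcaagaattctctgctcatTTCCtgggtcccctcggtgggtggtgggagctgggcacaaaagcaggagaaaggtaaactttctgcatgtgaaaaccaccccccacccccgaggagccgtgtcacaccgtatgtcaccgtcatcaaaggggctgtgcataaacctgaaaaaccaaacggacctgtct

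The Elf5 window of 244 bases holds 1 such match, as do 93.0% of 32851 RefSeq promoters cut to the same window. It holds no match, on either strand, of a full estrogen response element (GGTCA, any 3 bases, TGACC), of spaced half-sites for the progesterone receptor (ACA, any 3 bases, TGT) or of the site bound by STAT5 (TTC, any 3 bases, GAA), which occur in 0.1%, 5.7% and 6.9% of those promoters. A match or its lack describes the letters of this window only.

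Elf5 had 49.9, 79.1 and 47.0 CPM in WT E2, against 12.2, 7.61 and 11.4 CPM in WT placebo. Every WT E2 library stood above every WT placebo library, with a log2 fold change of 2.50 ± 0.46 (SE; adjusted p = 0.000133). With both hormones the WT libraries had 34.1, 11.8 and 10.4 CPM, so that WT E2+P4 1 was high and the other two were within the range of WT placebo, and the log2 fold change over WT placebo, 0.85 ± 0.44, was not called. WT E2+P4 was below WT E2 by a log2 fold change of -1.64 ± 0.45 (adjusted p = 0.00978). That call was lost without WT E2 2, WT E2+P4 2 or WT E2+P4 3 (log2 fold changes of -1.35 to -1.40), and the value was -2.40 without WT E2+P4 1. In WT P4 Elf5 had 6.07, 8.79, 19.7 and 15.9 CPM; the 2 higher values are those of the libraries of the later identifier series. WT P4 did not differ from WT placebo past the test with or without those libraries (-0.48 without and 0.28 with them), and WT E2+P4 exceeded WT P4 by 1.34 without them (adjusted p = 0.0321), against 0.58, not called, with them.

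In D542G cells no treatment was called for Elf5. All 12 D542G libraries had between 19.0 and 39.0 CPM, and the log2 fold changes against D542G placebo were 0.31 for E2, 0.35 for P4 and 0.36 for E2+P4. Y541S cells gave 33.0, 47.6 and 37.0 CPM with E2, 14.4, 12.6 and 14.7 CPM with P4, 21.7, 13.5 and 13.8 CPM with E2+P4, and 16.6, 32.3 and 68.5 CPM with placebo. The Y541S placebo libraries spanned more than those of any other Y541S group, with number 5 highest. Elf5 was lower in Y541S P4 than in Y541S placebo by -1.49 ± 0.45 on the log2 scale (adjusted p = 0.029) and in Y541S E2+P4 by -1.26 ± 0.44 (adjusted p = 0.0468). Without Y541S placebo 5 these values were -0.81 and -0.58, and neither was called. The P4 call was also lost without any 1 of the Y541S P4 libraries (-1.42 to -1.53), and the E2+P4 call without any 1 of the Y541S E2+P4 libraries or Y541S placebo 3 (-1.14 to -1.52). Y541S placebo exceeded WT placebo by 1.91 ± 0.45 (adjusted p = 0.00442), and without number 5 by 1.23, not called. Over the 12 groups, the highest mean was 58.7 ± 17.7 CPM in WT E2 and the lowest 10.4 ± 2.45 CPM in WT placebo (SD, n = 3 each), and each group in the order overlapped the next.

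**Figure D2:**
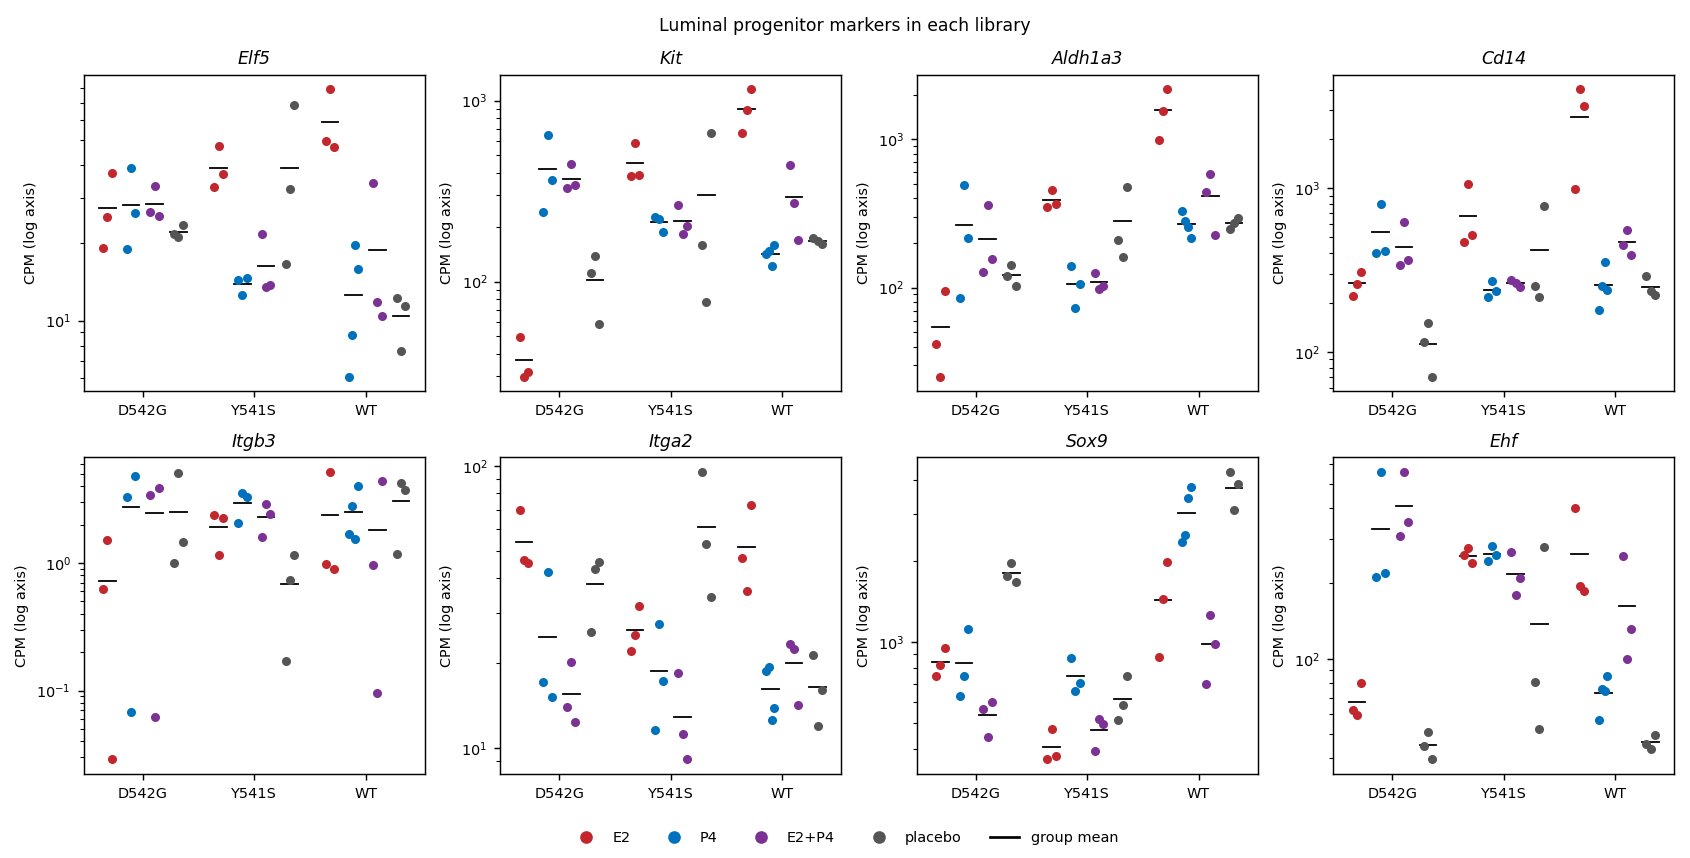
CPM of each of the 8 genes in every library (points, log axis; bars are group means of 3 libraries, or 4 in WT P4), by genotype on the horizontal axis and by treatment in colour. WT E2 stands highest for Elf5, Kit, Aldh1a3 and Cd14, D542G E2 lowest for Kit and Aldh1a3, and Sox9 is highest in WT placebo and WT P4.

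Ehf, the other ETS factor of the set, is found in many epithelia and lies 108.4 kb from Elf5 on the same chromosome (chr2:103263433-103303278, minus strand), with no protein-coding gene between them. It had 402, 196 and 186 CPM in WT E2, 258, 99.4 and 131 CPM in WT E2+P4, and 45.5, 43.8 and 49.6 CPM in WT placebo. Both hormone groups lay wholly above WT placebo, by log2 fold changes of 2.50 ± 0.45 (adjusted p = 9.14e-05) and 1.81 ± 0.44 (adjusted p = 0.00284). WT P4, with 57.1, 75.7, 74.5 and 85.6 CPM, also lay wholly above WT placebo, but its log2 fold change of 0.66 ± 0.40 (95% interval -0.17 to 1.49) was not called. WT E2+P4 exceeded WT P4 by 1.15 ± 0.39 (adjusted p = 0.0336), a call lost without WT E2+P4 1 (0.65) and without WT P4 2, 3 or 4 (1.05 to 1.17). In D542G cells Ehf had 212, 557 and 220 CPM with P4 and 310, 559 and 353 CPM with E2+P4, against 44.9, 51.0 and 39.6 CPM with placebo. These rises, 2.87 ± 0.45 (adjusted p = 9.7e-05) and 3.17 ± 0.46 (adjusted p = 9.11e-06), were the largest of the 9 hormone comparisons for Ehf; without D542G P4 2 the first was 2.25. With E2 alone D542G cells had 62.7, 59.4 and 79.9 CPM, a log2 fold change of 0.58 ± 0.43 that was not called.

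Y541S cells carried Ehf at 180 to 283 CPM in all 9 hormone-treated libraries. Their placebo libraries had 81.0 and 52.4 CPM in numbers 2 and 3, below all 9, and 280 CPM in number 5, within them. With number 5 in the fit no hormone group differed from Y541S placebo (log2 fold changes of 0.91 for E2, 0.93 for P4 and 0.67 for E2+P4, none called). Without it the values were 1.96, 1.98 and 1.72, all called (adjusted p of 0.00152, 0.00132 and 0.00251). Y541S placebo exceeded WT placebo by 1.57 ± 0.43 (adjusted p = 0.0145), and without number 5 by 0.53, not called; the call was also lost without WT placebo 1 (1.56). Of the 9 hormone comparisons, Ehf was called higher in 4 and lower in none, and group means spanned 9.02-fold. Its only neighbours in the order of groups that did not overlap were D542G E2 and WT placebo.

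Sox9 encodes a SOX-family factor of progenitor and stem cells in several epithelia (chr11:112782224-112787760, plus strand). It was called lower in 5 of the 9 hormone comparisons and higher in none. WT E2 had 880, 1441 and 1988 CPM, WT E2+P4 696, 1255 and 987 CPM, and WT placebo 4290, 3096 and 3852 CPM. Both groups with estradiol lay wholly below WT placebo, by log2 fold changes of -1.38 ± 0.25 (adjusted p = 0.000119) and -1.94 ± 0.26 (adjusted p = 2e-06). WT P4, with 2346, 2496, 3427 and 3780 CPM, overlapped WT placebo and was not called (-0.31 ± 0.23), and WT E2+P4 was below WT P4 by -1.62 ± 0.24 (adjusted p = 1.31e-05). In D542G cells each hormone lowered it: 748, 823 and 951 CPM with E2, 630, 747 and 1121 CPM with P4 and 566, 442 and 599 CPM with E2+P4, against 1766, 1967 and 1669 CPM with placebo. The log2 fold changes were -1.10 ± 0.25, -1.11 ± 0.25 and -1.75 ± 0.26 (adjusted p of 0.00286, 0.00292 and 1.04e-05).

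Without hormone, Sox9 already stood lower in both mutants. Y541S placebo had 513, 581 and 749 CPM, below WT placebo by -2.61 ± 0.26 (adjusted p = 7.54e-08), and this was called in all 15 alternative settings. D542G placebo was below WT placebo by -1.06 ± 0.25 (adjusted p = 0.0219), a call lost without any 1 of the D542G placebo libraries or without WT placebo 1 or 3 (-0.95 to -1.13). From its low placebo level Sox9 did not change past the test in Y541S cells (-0.60 for E2, 0.28 for P4 and -0.39 for E2+P4). In all, D542G placebo called 1 of the 8 genes against WT placebo, beside 2.02% of all genes (1.24% higher and 0.782% lower), and Y541S placebo called 4, Elf5, Itga2 and Ehf higher and Sox9 lower, beside 13.4% (7.18% higher and 6.22% lower).

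Kit encodes the receptor tyrosine kinase for stem cell factor (chr5:75574916-75656722, plus strand), and its promoter lies at chr5:75574737-75574915 on the plus strand. The ETS core in capitals again occurs 1 time in the 179 bases, as in 86.4% of all promoters of that window, and none of the other 3 motifs was found.

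Kit: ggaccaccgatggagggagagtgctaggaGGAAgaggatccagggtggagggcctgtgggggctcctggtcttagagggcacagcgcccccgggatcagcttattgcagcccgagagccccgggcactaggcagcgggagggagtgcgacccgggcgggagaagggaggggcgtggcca

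Under estradiol Kit rose in WT cells and fell in D542G cells. It had 661, 886 and 1160 CPM in WT E2, against 175, 168 and 161 CPM in WT placebo, a log2 fold change of 2.43 ± 0.49 (adjusted p = 0.000355). D542G E2 had 49.2, 29.9 and 31.7 CPM, against 111, 139 and 58.2 CPM in D542G placebo. The D542G E2 libraries were the 3 lowest of all 37, and the log2 fold change of -1.47 ± 0.48 was called (adjusted p = 0.0329), though not without D542G E2 2 or 3 or D542G placebo 1 or 2 (-1.20 to -1.41). With P4 the D542G libraries had 244, 649 and 366 CPM and with E2+P4 327, 445 and 341 CPM, all above D542G placebo, by 2.03 ± 0.48 (adjusted p = 0.00418) and 1.85 ± 0.48 (adjusted p = 0.00495). WT P4 had 142, 148, 122 and 160 CPM, all just below the WT placebo libraries, and a log2 fold change of -0.23 ± 0.43 that was not called.

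In WT E2+P4 Kit had 439, 271 and 170 CPM, below WT E2 by -1.62 ± 0.48 (adjusted p = 0.0163), which was lost without WT E2 3, WT E2+P4 2 or WT E2+P4 3 (-1.35 to -1.57). Against WT P4 the log2 fold change of 1.04 was not called, and without WT E2+P4 3 it was 1.31 and called. Y541S cells had 384, 585 and 390 CPM with E2, 229, 221 and 188 CPM with P4 and 264, 183 and 204 CPM with E2+P4. Their placebo libraries had 159 and 77.3 CPM in numbers 2 and 3 and 665 CPM in number 5, which stood above all 9 hormone-treated ones. None of the 3 hormones was called for Kit in Y541S cells, and without number 5 the E2 value was 1.94 (adjusted p = 0.00188), against 0.59 with it. Y541S placebo did not differ from WT placebo past the test (0.84), and without number 3 it did (1.29). Kit had 4 of 11 neighbouring groups in its order that did not overlap, the most of the 8 genes.

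Cd14 encodes a surface protein that presents bacterial lipopolysaccharide to the receptor Tlr4 (chr18:36725067-36726798, minus strand). It showed the set's largest rise: 981, 4038 and 3179 CPM in WT E2, against 291, 234 and 223 CPM in WT placebo, a log2 fold change of 3.45 ± 0.47 (adjusted p = 2.84e-06). WT E2+P4 had 447, 557 and 392 CPM, above all WT placebo libraries but not called against them (0.90 ± 0.43, adjusted p = 0.138). It lay below every WT E2 library, by -2.55 ± 0.46 (adjusted p = 0.00018), a call kept in all 13 alternatives. D542G cells had 404, 799 and 410 CPM with P4 and 339, 617 and 363 CPM with E2+P4, against 114, 150 and 70.5 CPM with placebo. The rises of 2.27 ± 0.45 (adjusted p = 0.00094) and 1.98 ± 0.45 (adjusted p = 0.00148) were called, and that of 1.24 ± 0.44 with E2 (220, 260 and 308 CPM) was not, at an adjusted p of 0.0525. In Y541S cells the placebo libraries again divided, with 252, 216 and 783 CPM, and E2 gave 468, 1056 and 514 CPM. The log2 fold change of 0.70 ± 0.43 was not called, and without Y541S placebo 5 it was 1.54 (adjusted p = 0.0229). Y541S P4 had 215, 270 and 235 CPM and Y541S E2+P4 276, 263 and 248 CPM, near the 2 lower placebo libraries, and neither was called (-0.80 and -0.67). WT P4 had 180, 254, 353 and 239 CPM, around the level of WT placebo (0.04 ± 0.40).

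Itga2 encodes the integrin alpha chain that forms a collagen receptor with Itgb1 (chr13:114833081-114932100, minus strand). Its promoter window of 250 bases, chr13:114932101-114932350 on the minus strand, holds 1 ETS core, as do 93.4% of promoters, and none of the other 3 motifs.

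Itga2: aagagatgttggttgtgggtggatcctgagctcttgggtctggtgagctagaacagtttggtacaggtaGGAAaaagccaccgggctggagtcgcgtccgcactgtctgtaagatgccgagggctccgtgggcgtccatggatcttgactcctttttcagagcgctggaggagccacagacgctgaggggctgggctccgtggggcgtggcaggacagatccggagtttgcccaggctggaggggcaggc

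Itga2 rose with estradiol in WT cells and fell with P4 and with E2+P4 in Y541S cells. It had 47.0, 36 and 72.5 CPM in WT E2, against 21.3, 12 and 16.1 CPM in WT placebo (1.65 ± 0.40, adjusted p = 0.00226). WT E2+P4, with 23.3, 22.4 and 14.2 CPM, was below WT E2 by -1.37 ± 0.40 (adjusted p = 0.0154), a call lost without WT E2 3 (-1.05) or WT E2+P4 3 (-1.18). WT P4 had 18.7, 19.3, 12.6 and 13.9 CPM, within the range of WT placebo. Y541S cells had 22.0, 25.1 and 31.8 CPM with E2, 11.6, 27.5 and 17.2 CPM with P4 and 18.4, 11.2 and 9.09 CPM with E2+P4, against 95.5, 53.0 and 34.2 CPM with placebo. All 9 hormone-treated libraries lay below the placebo ones. The difference was called for E2+P4 (-2.24 ± 0.41, adjusted p = 0.000329, in all 14 alternatives) and for P4 (-1.70 ± 0.40, adjusted p = 0.00589, lost without Y541S P4 1 at -1.45 or Y541S placebo 2 at -1.22). For E2 it was -1.21 ± 0.40 and not called, and -1.50 and called without Y541S placebo 5. Y541S placebo exceeded WT placebo by 1.89 ± 0.41 (adjusted p = 0.00182). The fibroblast markers Col1a1, Col1a2, Col3a1, Pdgfra, Dcn and Lum summed to 3806 and 4058 CPM in Y541S placebo 2 and 3 and 477 CPM in number 5, against 36.1 to 293 CPM in WT placebo. Of these, 2 of 6, Dcn (4.48) and Col1a1 (4.65), were called higher in Y541S placebo than in WT placebo, beside 7.18% of all genes. In Y541S E2 against Y541S placebo only Dcn was called (-3.96), beside 2.78% of all genes lower. Y541S P4 called none of the 6 (sums of 469 to 731 CPM). Y541S E2+P4 called only Dcn, lower (-2.84, sums of 217 to 566 CPM). Of 6 endothelial markers, Y541S E2+P4 called Cdh5 (-3.68) and Pecam1 (-2.49) lower, and Y541S P4 called none. Of 10 basal markers, 3 were called lower in Y541S P4 and 1 in Y541S E2+P4. Beside these, 6.13% and 10.1% of all genes were lower in Y541S P4 and Y541S E2+P4. The part of fibroblasts, endothelial and basal cells in the Itga2 values was not tested. In D542G cells E2 gave 69.6, 46.5 and 45.4 CPM, P4 17.1, 42.0 and 15.2 CPM, E2+P4 14.0, 20.1 and 12.3 CPM and placebo 25.8, 43.2 and 45.7 CPM. D542G E2+P4 was wholly below D542G placebo (-1.31 ± 0.40, adjusted p = 0.0164), a call lost without D542G E2+P4 1 or 3 or D542G placebo 2 or 3 (-1.16 to -1.24).

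Itgb3 encodes the integrin beta chain that pairs with Itgav, and with Itga2b in platelets (chr11:104608000-104670476, plus strand). It was the least counted of the 8. Counts ran from 1 to 245 per library, and levels differed widely within groups, for example 5.20 CPM in WT E2 2 beside 0.986 and 0.897 CPM in the other two, or 0.0676 CPM in D542G P4 2 beside 3.28 and 4.86 CPM. No comparison called it, in any of 331 recomputed values. Its 95% interval for WT E2 over WT placebo, -2.76 to 2.01 on the log2 scale, holds both a several-fold rise and a several-fold fall.

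Aldh1a3 encodes an enzyme that makes retinoic acid from retinaldehyde (chr7:66390890-66427517, minus strand). Its group means spanned the widest range of the 8 genes, 29.3-fold, between 1579 ± 603 CPM in WT E2 and 53.8 ± 36.3 CPM in D542G E2 (SD, n = 3 each). The WT E2 libraries had 985, 1560 and 2191 CPM, against 249, 271 and 295 CPM in WT placebo (2.54 ± 0.52, adjusted p = 0.00041). WT E2+P4 had 443, 582 and 228 CPM, below WT E2 by -1.92 ± 0.51 (adjusted p = 0.00788), which was lost without WT E2+P4 3 (-1.62). D542G E2 had 41.8, 25.1 and 94.7 CPM, all below the 120, 143 and 103 CPM of D542G placebo, yet the log2 fold change of -1.18 ± 0.50 was not called (adjusted p = 0.109). Without D542G E2 3 it was -1.87 and called. D542G P4 spread widely, with 84.7, 489 and 216 CPM and a log2 fold change of 1.11 ± 0.50 that was not called, and without D542G P4 1 it was 1.53 and called. D542G E2+P4 had 127, 361 and 155 CPM (0.81, not called). In Y541S cells E2 gave 351, 458 and 367 CPM, within the range of their placebo libraries (0.47, not called). Y541S P4 had 139, 73.0 and 105 CPM and Y541S E2+P4 126, 97.3 and 102 CPM, all below the 208, 162 and 478 CPM of Y541S placebo. Neither difference was called (-1.42 and -1.38, adjusted p of 0.0651 and 0.0525), and both were without Y541S placebo 3 (-1.70 and -1.66).

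Whether a mutation changes a gene's hormone response was tested as the mutant's log2 fold change minus that of WT cells. The D542G response to E2 was below the WT response for 5 of 8 genes, beside 9.23% of all genes called (4.52% higher and 4.71% lower). Kit (-3.90 ± 0.68, adjusted p = 0.000445) and Aldh1a3 (-3.72 ± 0.72, adjusted p = 0.00116) differed most and were called in all 20 alternatives; without D542G E2 3 the Aldh1a3 value was -4.40. For Elf5 the difference was -2.19 ± 0.63, for Cd14 -2.22 ± 0.62 and for Ehf -1.92 ± 0.61 (adjusted p of 0.0246, 0.0203 and 0.0432). The Elf5 call was lost without D542G E2 1 or 2, WT E2 2 or WT placebo 2 (-1.91 to -2.13), and the Cd14 call without D542G E2 1, D542G placebo 2, WT E2 2 or WT placebo 3 (-1.82 to -2.14). The Ehf call was lost without any 1 of the 12 libraries other than WT E2 2 and 3 (-1.47 to -2.06). The Y541S response to E2 was below that of WT cells for 3 of 8, beside 8.02% of all genes (4.02% higher and 4.01% lower): Itga2 (-2.87 ± 0.57, adjusted p = 0.00173), Cd14 (-2.75 ± 0.62, adjusted p = 0.00549) and Elf5 (-2.49 ± 0.63, adjusted p = 0.0126). Without Y541S placebo 5 these were -3.15, -1.92 and -1.81, and Elf5 was not called. Kit, Aldh1a3 and Ehf had differences of -1.83, -2.06 and -1.59 that were not called; each was called without Y541S placebo 3 (-2.29, -2.34 and -1.98), Kit also without Y541S placebo 2 (-2.14) and Aldh1a3 also without WT E2 1 (-2.31).

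For progesterone, the D542G response exceeded the WT response for Kit (2.26 ± 0.64), Cd14 (2.23 ± 0.59) and Ehf (2.20 ± 0.58), 3 of 8 beside 3.35% of all genes (1.51% higher and 1.83% lower), with adjusted p of 0.0454, 0.0345 and 0.0342. Leaving out each of the 13 libraries in turn, the Kit call held only without D542G P4 1 or 3, the Cd14 call only without these, D542G placebo 2 or WT P4 4, and the Ehf call only without D542G P4 1 or 3 or WT P4 3 or 5. The values without D542G P4 2 were the lowest (1.80, 1.83 and 1.59). None was called without both WT placebo 2 and WT P4 2, whose cycling-cell markers summed to 251 and 173 CPM, against 7.48 to 14.0 CPM in the rest of their groups. The Y541S response to P4 was called different for none of the 8, beside 7.33% (3.46% higher and 3.87% lower); Elf5, Aldh1a3 and Itga2 had an unadjusted p under 0.05, and DESeq2 called Elf5 and Itga2. It was called for Elf5 without WT P4 2 (-1.99) or Y541S placebo 2 (-2.13), and for Itga2 without Y541S P4 2 (-2.05) or Y541S placebo 5 (-1.96), against -1.76 and -1.67 with all libraries. For E2+P4 the D542G response was called different for none, beside 4.3% (1.16% higher and 3.14% lower); Itga2 and Ehf had an unadjusted p under 0.05, and DESeq2 called Itga2. The Y541S response was called for Itga2 (-2.52 ± 0.57, adjusted p = 0.00446), Sox9 (1.55 ± 0.35, adjusted p = 0.00538) and Elf5 (-2.11 ± 0.63, adjusted p = 0.0324), 3 of 8 beside 8.68% (3% higher and 5.68% lower). The first 2 were called in all 21 alternatives, and Elf5 was lost without WT E2+P4 1 (-1.35), Y541S placebo 5 (-1.43), WT placebo 2 or 3 or Y541S E2+P4 2 or 3 (-1.93 to -2.18). Aldh1a3 was called there only without Y541S placebo 3 or with DESeq2 (-2.28 and -2.06). These 3 genes also differed between Y541S placebo and WT placebo (1.89 for Itga2, -2.61 for Sox9 and 1.91 for Elf5), and the placebo levels enter the difference. Mean Sox9 was 469 CPM in Y541S E2+P4 and 614 CPM in Y541S placebo, against 979 CPM in WT E2+P4 and 3746 CPM in WT placebo. The interactions of a treatment share the WT libraries.

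**Figure D3:**
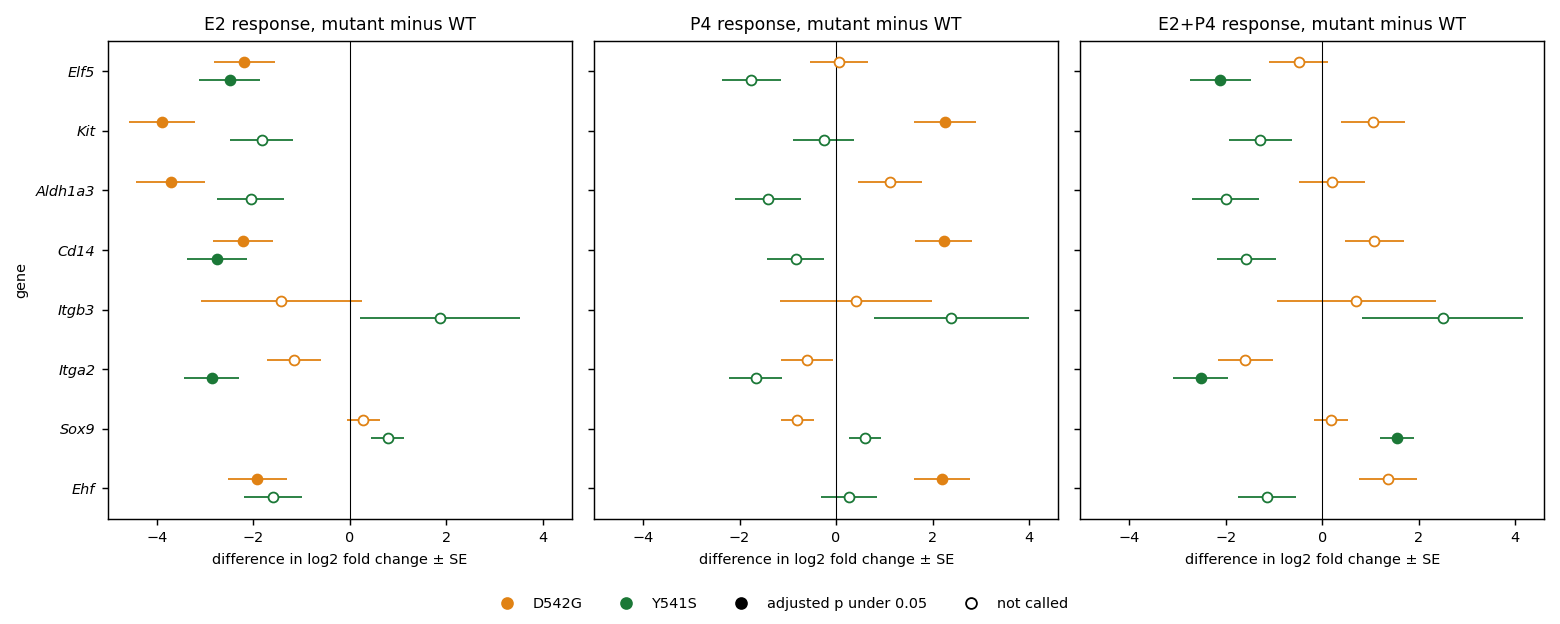
Difference between a mutant's and the WT log2 fold change over placebo (± SE) for E2, P4 and E2+P4, with D542G and Y541S as separate points; filled points passed an adjusted p of 0.05. Under E2 the called differences, 5 for D542G and 3 for Y541S, all lie left of 0, and under P4 the 3 called D542G differences lie right of it.

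In WT cells given progesterone with estradiol, 5 of the 6 genes that estradiol raised were lower than with estradiol alone. WT E2+P4 against WT E2 called 5 of 8 lower (Elf5, Kit, Aldh1a3, Cd14 and Itga2), beside 18.5% of all genes (10.2% higher and 8.28% lower). Ehf (-0.68 ± 0.43) and Sox9 (-0.55 ± 0.25) were not called, though Sox9 was without WT E2 1 (-0.81). Of the 5, Cd14 alone kept its call in every fit that left out 1 library. Without WT E2+P4 3 the count was 1 of 8, beside 2060 of all genes rather than 3406. With only the groups compared it was 1 of 8, beside 711 of all genes. The E2+P4 response fell short of the sum of the single responses for Cd14 (-2.60 ± 0.60, adjusted p = 0.00475, in all 22 alternatives) and Elf5 (-1.92 ± 0.61, adjusted p = 0.0388), 2 of 8 beside 11.4% (6.39% higher and 5% lower). The Elf5 call was lost without WT E2 2, WT E2+P4 2 or 3, WT P4 4 or 5 or any 1 of the WT placebo libraries (-1.59 to -2.05), and the value was -2.68 without WT E2+P4 1. Aldh1a3 and Ehf, at -1.91 and -1.34, were not called, but were without WT E2 1 (-2.16) and without WT E2+P4 1 (-1.84). WT E2+P4 against WT P4 called Ehf higher and Sox9 lower, 2 of 8 beside 23.2% (12% higher and 11.1% lower).

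The 8 genes did not form a single block. Over the 12 group means of log2 CPM, as a description with libraries shared across comparisons, Kit, Aldh1a3 and Cd14 went together (Pearson r of 0.81 for Kit with Aldh1a3, 0.78 for Kit with Cd14 and 0.79 for Aldh1a3 with Cd14), and Kit also went with Ehf (0.73). Elf5 went most with Itga2 (0.68) and Cd14 (0.67) and less with Kit (0.44), Ehf (0.43) and Aldh1a3 (0.40). Sox9 ran opposite to Ehf (-0.71). In D542G P4, Kit, Cd14 and Ehf were called higher, while Aldh1a3 (1.11), Elf5 (0.35) and Itga2 (-0.63) were not called. Among 10316 genes whose log2 CPM averaged 2 or more, the 5 whose group means were most like those of Elf5 were Ifi27 (0.925), Bace2 (0.899), Plekhh2 (0.885), Ifngr1 (0.882) and Tor1a (0.867), and the 3 most opposite were Gm19028 (-0.946), Cldn10 (-0.929) and Spred2 (-0.927). Itga2 was exceeded in likeness to Elf5 by 131 genes and Ehf by 1192.

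**Figure D4:**
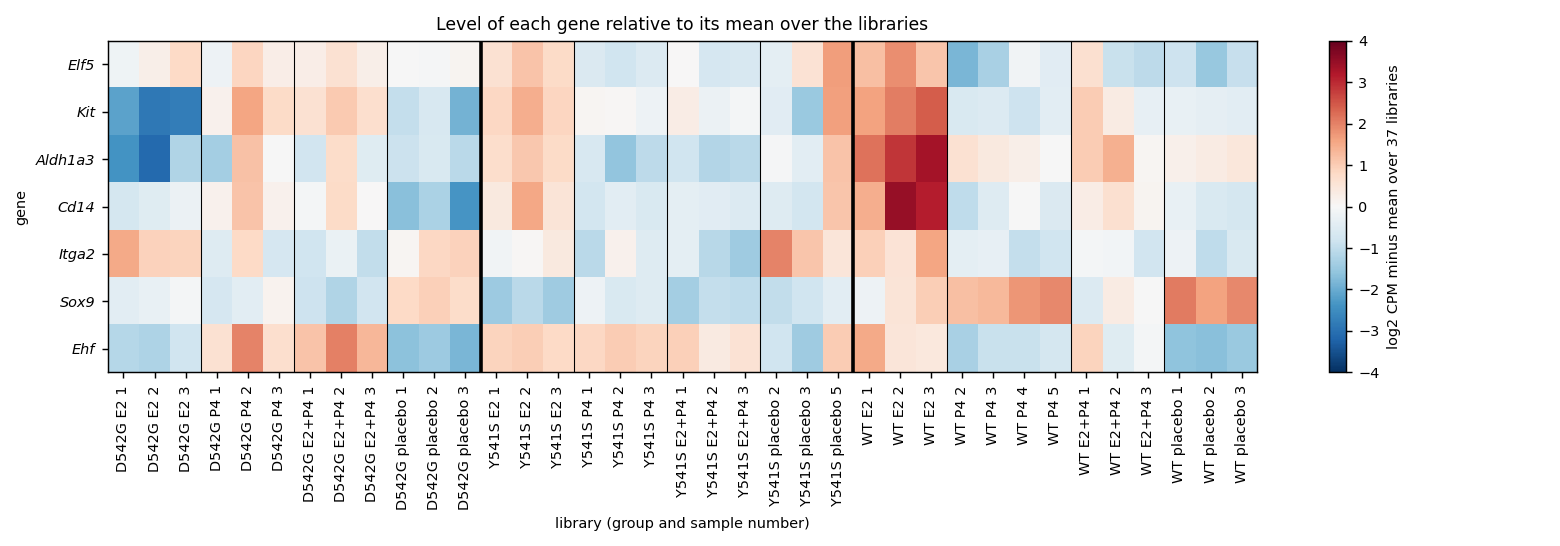
Log2 CPM of 7 genes (Itgb3 left out for low counts) in each of the 37 libraries, minus the gene's mean over all libraries, with thin lines between groups and thick lines between genotypes. Kit, Aldh1a3 and Cd14 are red in all WT E2 libraries, from pale to dark (lowest 1.44 for Cd14 in WT E2 1). Kit and Aldh1a3 are blue in all D542G E2 libraries (palest -1.20 for Aldh1a3 in D542G E2 3). Y541S placebo 5 is redder than Y541S placebo 2 and 3 for Elf5, Kit, Aldh1a3, Cd14 and Ehf.

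Genes that work with the 8 were followed as a list of 16, of which 15 were tested and Elf3 was listed at 0 in all libraries. The counting tool and annotation are not known, so these zeros are not read as absence of Elf3 RNA. In WT E2 against WT placebo, 5 were called higher and 1 lower, beside 31.5% of all genes (15.6% higher and 15.9% lower), and the list median was 0.27 beside 0.03 for all genes (log2). Higher were Tlr4 (1.69 ± 0.19, adjusted p = 2.1e-07), which signals for Cd14, Lbp (4.71 ± 0.56, adjusted p = 4.45e-07), which carries lipopolysaccharide to Cd14, Crabp2 (2.98 ± 0.43, adjusted p = 4.89e-06), which binds retinoic acid, and 2 others. Spdef, a further ETS factor, was lower (-2.22 ± 0.42, adjusted p = 0.000165). Kitl, the ligand of Kit, was not called (0.30 ± 0.28), nor were the integrin partners Itgb1, Itgav and Itga2b; these 4 are named after their values were seen. In D542G P4 against D542G placebo 4 were called higher and 3 lower, beside 18.4% of all genes, with Crabp2 (3.77), Kitl (1.58) and Sox10 (2.91) higher and Itgav (-1.15) lower first by p, and in D542G E2 3 were higher (Crabp2, Lbp and Tlr4) and none lower, beside 15.7%.

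Of 19 other progenitor and alveolar genes, 7 were called higher and 1 lower in WT E2 against WT placebo, beside 31.5% of all genes (15.6% higher and 15.9% lower), and the list median was 2.16 beside 0.03 for all genes. First by p were Mfge8 (2.66), a milk fat globule protein, Plin2 (2.71) of lipid droplets, transferrin (Trf, 3.67) and Gabrp (2.98), a subunit of a GABA receptor. WT E2+P4 against WT placebo called 9 of the 19 higher and 3 lower, beside 11.8% and 11.5% of all genes, with a list median of 1.03. Against WT E2 it called 2 higher and 7 lower, beside 10.2% and 8.28%. D542G E2+P4 against D542G placebo called 10 higher and 2 lower, beside 13% and 12.4%. In Y541S placebo against WT placebo 8 were higher, led by Gabrp (5.06), and none lower, beside 13.4% of all genes (7.18% higher). In D542G P4 7 were higher and none lower, beside 18.4% (9.49% higher), with Trf (3.08), Mfge8 (1.77), Plin2 (1.57) and Lcn2 (1.80) first by p. In D542G E2 3 were higher, Gabrp, Plin2 and Krt18, and none lower, beside 15.7% (8.36% higher). In Y541S E2+P4 none was higher and 7 were lower, beside 18.5% (10.1% lower), with Gabrp (-2.52) and the Notch target Hey1 (-3.61) first. The 10 hormone-sensing genes went the other way in WT E2: 9 were lower, first by p Esr1 (-4.82), Tbx3 (-3.54), Prlr (-3.65) and Cited1 (-5.16), and Areg, an estrogen receptor target named as the single exception, was higher. Their summed level was 915 to 1590 CPM in WT E2, against 5812 to 8166 CPM in WT placebo. In D542G E2, where Kit was at its lowest, they summed to 4769 to 5327 CPM, against 6219 to 7343 CPM in D542G placebo, with 4 lower and 1 higher. In Y541S placebo they summed to 4597, 5637 and 1796 CPM in numbers 2, 3 and 5. Number 5, with the most Elf5, Kit, Aldh1a3, Cd14 and Ehf of its group, had the least hormone-sensing RNA of that group. Sums were similarly low in Y541S P4 (1597 to 2015 CPM) and Y541S E2+P4 (1523 to 1676 CPM). There Elf5 was called lower than in Y541S placebo with all libraries, though not without number 5. The sums were 1978 to 2759 CPM in Y541S E2, 2557 to 3830 CPM in D542G P4, 1534 to 2620 CPM in D542G E2+P4 and 2205 to 4169 CPM in WT E2+P4. These sums include genes that hormones themselves move, Esr1 among them, so they do not measure a share of cells. Whether they are tied to the levels of the 8 genes was not tested.

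Cells other than luminal ones can also carry some of the 8 genes. Beside the counts below, 15.6% of all genes were called higher in WT E2 and 11.8% in WT E2+P4. In D542G cells the shares were 8.36% with E2, 9.49% with P4 (8.88% lower) and 13% with E2+P4 (12.4% lower). Against WT placebo the share was 7.18% in Y541S placebo. In lists this short, 1 of 8 or 1 of 6 called stands near these shares. Leukocyte markers, which matter for Cd14, summed to 146, 29.5 and 27.5 CPM in WT E2, against 3.88, 5.20 and 3.00 CPM in WT placebo, and 5 of 8 were called higher (first by p Tyrobp, Lyz2, Csf1r and Cd68). The library with the most, WT E2 1, had the least Cd14 of its group, 981 CPM. In D542G P4 they summed to 15.3, 112 and 16.5 CPM, against 8.25 to 9.01 CPM in D542G placebo, with 1 of 8 called higher, and D542G P4 2 had the most of both these markers and Cd14. Leukocyte sums were 34.9 to 68.2 CPM in D542G E2+P4, with 2 of 8 higher, and 9.22 to 96.7 CPM in D542G E2, with 1 of 8 higher. They were 7.01 to 64.2 CPM in WT E2+P4, with 3 of 8 higher. Mast cell markers, which matter for Kit, summed to 0.113, 0.239 and 8.43 CPM in WT E2, against 0 to 0.188 CPM in WT placebo, and none of the 4 tested was called. The library with the most, WT E2 3, also had the most Kit of its group, 1160 CPM. Endothelial markers summed to 40.0, 136 and 52.2 CPM in D542G P4, against 18.2, 9.56 and 8.75 CPM in D542G placebo, with 3 of 6 called higher, and D542G P4 2, with the most, also had the most Kit, Cd14, Ehf and Aldh1a3 of its group. In D542G E2+P4 they summed to 39.1 to 50.4 CPM, with 1 of 6 higher. Fibroblast markers summed to 54.6 to 411 CPM in D542G P4, against 239 to 862 CPM in D542G placebo. There 3 of 6 were called higher and 1, Dcn, lower (-3.58). In D542G E2+P4 fibroblast markers summed to 144 to 477 CPM, with 4 of 6 higher, first by p Col3a1 (5.12) and Lum (6.19). Dcn went the other way in D542G E2+P4 too (-2.17, not called). The fibroblast sums did not rise with the markers called higher. Basal markers summed to 98.7 to 369 CPM in D542G P4 and 179 to 373 CPM in D542G E2+P4, against 40.9 to 238 CPM in D542G placebo, with 2 and 3 of 10 called higher. In Y541S placebo leukocyte markers summed to 19.4, 18.7 and 57.1 CPM in numbers 2, 3 and 5, against 3.00 to 5.20 CPM in WT placebo, with 3 of 8 called higher, and number 5 also had the most endothelial markers of its group (111 CPM). Cycling-cell markers summed to 251 CPM in WT placebo 2 beside 7.67 and 7.48 CPM in the other two. Without that library and WT P4 2 all 7 WT E2 calls remained. Platelet markers summed to at most 14.1 CPM, beside at most 5.20 CPM of Itgb3, and basal ones to at most 649 CPM. Of the 3 platelet markers tested, Pf4 was called higher in WT E2 (5.57), WT E2+P4 (5.22) and each D542G hormone group (4.25 to 5.21). In Y541S placebo it was called higher than in WT placebo (4.28). Itga2b was called lower in D542G E2+P4 (-2.02). The part of these cells in the marker values was not tested.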

How the data were processed

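RNA from sorted mammary luminal cells was sequenced in 37 libraries of 12 groups. The authors deposited raw counts per gene, RPKM values and gene widths in tables of the whole series, on GRCm38 per the submitters' processing notes; for aligner, counting tool, annotation and strand use, the sources used here give nothing. Deposited RPKM values served only for checks: the gene counts made up 88.0 to 90.2% of the total that the deposited RPKM imply. The widths equalled the genomic span for 85.6% of genes.

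Counts were fitted with edgeR 4.0.16 (R 4.3.3; quasi-likelihood, robust, TMM factors of 0.77 to 1.17), with all 37 libraries and a coefficient per group. A filter by group on low counts left 18426 genes. Adjusted p-values are Benjamini-Hochberg over these in each of 20 comparisons, a call is an adjusted p under 0.05, and the SE of a log2 fold change is its size over the square root of F. The common biological coefficient of variation was 0.458, with 25 residual degrees of freedom. Fits were tested on simulated data. DESeq2 1.42.0 and other settings were alternatives. Chi-square per degree of freedom between the 39 replicate pairs was at least 23.3, far above sampling noise, so all 37 were counted as separate samples. RPKM and the authors' widths were used for no test.

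The members, companion lists and tests were chosen with earlier results of these data known. The text names the 8 genes in every comparison, up to 4 genes with the smallest p of each companion list, and the 5 genes most like and 3 most unlike Elf5. Krt18 stands in 2 lists, as does Itga2b. Alternatives were other normalizations, filters and tools, the compared groups alone, the replicate number as a block, leaving out each library, the later identifier series and, added after seeing the data, the 2 WT libraries rich in cycling-cell markers.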

Additional observations from a re-analysis of the deposited data

Results flagged for a closer look

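A mutant's hormone response differed from the WT response, by the test of the difference itself in edgeR, in 14 of 48 gene and treatment pairs. Of all genes, 9.23% and 8.02% were called in these tests for E2 in D542G and Y541S. The shares were 3.35% and 7.33% for P4, and 4.3% and 8.68% for E2+P4. Under E2, D542G minus WT was -2.19 for Elf5, -3.9 for Kit, -3.72 for Aldh1a3, -2.22 for Cd14 and -1.92 for Ehf on the log2 scale. Under E2, Y541S minus WT was -2.49 for Elf5, -2.75 for Cd14 and -2.87 for Itga2. Under P4, D542G minus WT was 2.26 for Kit, 2.23 for Cd14 and 2.2 for Ehf. Under E2+P4, Y541S minus WT was -2.11 for Elf5, -2.52 for Itga2 and 1.55 for Sox9. The Kit and Aldh1a3 differences under E2 in D542G, that of Itga2 under E2 in Y541S, and those of Itga2 and Sox9 under E2+P4 in Y541S were called in every alternative run. Leaving out 1 library in turn, the Kit, Cd14 and Ehf calls under P4 in D542G were lost in 11, 9 and 9 of 13 fits. Under E2 in D542G the Ehf call was lost in 10 of 12 fits and the Elf5 and Cd14 calls in 4 each. The Elf5 call in Y541S was lost in 6 of 12 fits under E2+P4 and in 1 under E2.

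WT P4 was the only group of 4, and none of its 16 tests of a highest or lowest library, 2 for each of the 8 genes, passed Dixon's critical value.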

How the results depend on the processing

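Over 2648 recomputed values of the 8 genes, no called value changed sign, 144 calls were lost and 65 gained (102 and 25 of them by leaving out 1 library), and 99 values called in neither fit changed sign. Leaving out each library in turn, the number of the 8 genes called ranged from 7 to 7 for WT E2, 0 to 0 for WT P4, 2 to 2 for WT E2+P4, 1 to 2 for D542G E2, 4 to 5 for D542G P4 and for D542G E2+P4, 0 to 4 for Y541S E2, 0 to 3 for Y541S P4 and 1 to 2 for Y541S E2+P4. It ranged from 0 to 1 for D542G placebo and 2 to 5 for Y541S placebo against WT placebo, and in WT E2+P4 from 1 to 3 against WT P4 and 1 to 6 against WT E2. For responses against WT it ranged from 2 to 5 (D542G E2), 2 to 6 (Y541S E2), 0 to 3 (D542G P4), 0 to 1 (Y541S P4), 0 to 0 (D542G E2+P4) and 2 to 4 (Y541S E2+P4), and from 1 to 3 against the sum of single responses. Without a filter on low counts, 1 gene was called for D542G E2, Y541S E2+P4, WT E2+P4 against WT P4, the D542G P4 response and the sum. DESeq2 called 1 for Y541S E2, 5 for the Y541S E2 response, 2 for the Y541S P4 response and 1 for the D542G E2+P4 response. With only the groups compared, the counts were 0 for Y541S P4, 1 for Y541S E2+P4, 3 for D542G placebo, 1 for Y541S placebo, 4 and 1 for WT E2+P4 against WT P4 and WT E2, and 1 for the Y541S E2 response. Without TMM, 1 was called for Y541S E2+P4 and for WT E2+P4 against WT P4. Without the later identifier series, 4 were called for Y541S E2 and 1 for the Y541S P4 response and the sum. At 1 CPM in 10 libraries, 1 was called for the Y541S P4 response. Without the 2 cycling-marker libraries, 1 was called for WT E2+P4 against WT P4 and 0 for the D542G P4 response. The cause was not tested.

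With the replicate number as a block, 1 gene was called for Y541S E2, 5 for WT E2+P4 against WT P4 and 1 for the sum. Same-number samples did not pair: over 178 pairs the median correlation of deviations was 0.01 (-0.67 to 0.71), and 12 of 37 libraries correlated best with one of their own number.

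Over all genes, fitting only the groups compared called 2809 for WT E2 (5796 with all groups), 1924 for D542G P4 (3385), 0 for Y541S E2 (857), 1010 for Y541S P4 (2077), 1714 for Y541S E2+P4 (3417), 813 for Y541S placebo (2469), 711 for WT E2+P4 against WT E2 (3406), 1112 and 362 for the D542G and Y541S E2 responses (1701 and 1478), 852 for the Y541S E2+P4 response (1599) and 1312 for the sum (2099). DESeq2 called 746 for WT P4 (263), 1439 for Y541S E2, 665 for D542G placebo (372) and 1264, 2098 and 1435 for the D542G P4, Y541S P4 and D542G E2+P4 responses (617, 1350 and 792). WT P4 called 160 without a filter, 79 with the block and 152 without the cycling-marker libraries. The block also gave 349 for the Y541S P4 response and 1331 for the sum. Without the later series, 1784 were called for Y541S E2, 2838 for WT E2+P4 against WT P4 (4274), and 969 and 546 for the Y541S E2 and P4 responses. Without the cycling-marker libraries, 235 and 450 were called for the D542G P4 and E2+P4 responses. For Itgb3, with 1 to 245 counts per library, no value was called.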
